A study of Mus musculus with 8 samples.

Results

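Cell cycle and proliferation genes were read in RNA from whole mouse kidneys. The list holds 35 genes, all of which are among the 37583 gene identifiers that each of the 8 libraries reports. By role, 11 members act in DNA replication (Mcm2 to Mcm7, Pcna, Rrm1, Rrm2, Tyms and Tk1), 19 in mitosis and 5 are cyclins of the G1 phase (Ccnd1, Ccnd2, Ccnd3, Ccne1 and Ccne2). The list is by name, with no threshold on a measured value. The label of the list is that of its genes, and every member was detected in all 8 libraries.

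The study compared kidneys of Six2Cre+TFAP2Afl/flTFAP2Bfl/WT mice, labelled knockout, with kidneys of control littermates, labelled WT, with 4 libraries per group. The knockout genotype is a Cre recombinase driven by Six2, a gene of the progenitors of nephron epithelium, with both alleles of Tfap2a floxed and a single allele of Tfap2b floxed, so deletion is limited to cells that made Six2 or descend from such cells and a Tfap2b allele is left intact. What alleles the littermates carry beyond WT, and the age, sex, litter or number of animals, are not stated in the labels. Libraries are called knockout 1 to 4 and wildtype 1 to 4 after their labels, and knockout 1 is the library named ALc1-1.

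Levels are given as CPM, a gene's counts scaled to a common library total. The targeted genes did not bear out the labels. Tfap2a was at 5.64, 3.63, 5.11 and 5.81 CPM in knockout 1 to 4 and at 4.08, 4.69, 5.30 and 2.77 CPM in wildtype 1 to 4. Tfap2b was at 69.1, 103, 57.9 and 89.2 CPM against 100, 51.8, 74.5 and 86.2 CPM. Both genes overlapped between the groups, with log2 differences of 0.26 (SE 0.24) and 0.03 (SE 0.22). Whole-gene counts also include reads from exons outside a floxed segment and from cells without Cre, so directions below are those of the labels.

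Gene counts totalled 13871861 to 16629301 per library, and 3 counts, the limit that a count of 0 allows, equal 0.188 to 0.222 CPM for counting error only. Libraries differ in ways the genotypes do not explain. Summed markers of adrenal cortex were 915 CPM in knockout 2 and 883 CPM in wildtype 1 against 4.77 to 11.4 CPM elsewhere, heat-shock and immediate early genes summed to 441 and 898 CPM in knockout 2 and knockout 4 against 85.5 to 175 CPM, and ALc1-1 had the most red cell transcripts. The tissue label fits its markers in that Kap, a proximal tubule transcript, was at 26048 to 51735 CPM. Six2 itself had 0 counts in all 8 libraries. Whether the libraries of a group come from separate animals is not stated in the labels, so p-values measure only the spread between these libraries, which may be technical. In RNA from a whole organ, fewer cells of a type and less RNA per cell cannot be told apart.

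A cell that divides first licenses its replication origins with the Mcm2 to Mcm7 helicase, copies its DNA with nucleotides made by enzymes such as ribonucleotide reductase, and then builds a spindle and separates its chromosomes. Replication genes are activated by E2F factors when D and E cyclins inactivate the retinoblastoma protein, whereas many mitotic genes peak later and carry a CHR element, the cell cycle genes homology region, beside CCAAT boxes bound by NF-Y. In the adult kidney few tubular cells cycle at rest, and D cyclins are also made by cells that do not divide.

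Since replication and mitosis members differ in how their promoters are known to work, 4 promoters are shown, each as the 250 bases before the transcription start in RefSeq on GRCm38.p6, written 5′ to 3′ on the gene's strand. Capitals mark matches, on either strand, to 4 E2F words, to a CHR word or to the CCAAT box. The E2F words searched began with TTCCCGC, and were followed by TTGGCGC, a word that differs in its middle bases. Next came the word TTCGCGC, and the last of them was TTGCCGC. The CHR word searched was TTTGAA. Mcm6, on the minus strand at chr1:128359706-128359955, stands for the replication members and has E2F and CCAAT words. Cdk1, minus strand, chr10:69352913-69353162, and Top2a, minus strand, chr11:99024190-99024439, stand for the mitosis members. Both have CHR and CCAAT words, and Cdk1 has 2 E2F words as well. Ccnd3, plus strand, chr17:47504801-47505050, is the only D cyclin with a matched promoter and has none of these words.
Mcm6: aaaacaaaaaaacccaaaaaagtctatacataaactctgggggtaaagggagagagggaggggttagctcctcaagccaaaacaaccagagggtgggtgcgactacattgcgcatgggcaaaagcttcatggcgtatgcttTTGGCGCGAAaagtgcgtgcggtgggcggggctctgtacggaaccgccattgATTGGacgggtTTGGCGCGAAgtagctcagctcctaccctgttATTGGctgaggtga
Cdk1: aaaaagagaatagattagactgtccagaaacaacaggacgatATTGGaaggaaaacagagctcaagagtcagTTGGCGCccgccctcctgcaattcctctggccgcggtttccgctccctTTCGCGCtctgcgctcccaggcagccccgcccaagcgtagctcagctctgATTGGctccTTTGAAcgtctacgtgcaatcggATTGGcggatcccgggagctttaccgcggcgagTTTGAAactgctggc
Top2a: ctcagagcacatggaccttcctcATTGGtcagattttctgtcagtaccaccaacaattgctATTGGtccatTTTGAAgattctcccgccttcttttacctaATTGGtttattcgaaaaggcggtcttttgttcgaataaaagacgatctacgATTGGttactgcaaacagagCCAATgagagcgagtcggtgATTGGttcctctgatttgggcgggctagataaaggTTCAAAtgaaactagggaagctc
Ccnd3: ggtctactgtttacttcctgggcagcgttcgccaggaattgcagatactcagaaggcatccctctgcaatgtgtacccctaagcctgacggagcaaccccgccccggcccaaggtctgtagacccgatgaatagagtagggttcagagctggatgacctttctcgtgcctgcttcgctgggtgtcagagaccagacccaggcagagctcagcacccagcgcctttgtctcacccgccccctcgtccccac
RefSeq promoters were matched for 27 of the 35 members, and words were counted in a window that adds the 50 bases after the start. E2F words stood in 6 of 10 replication promoters and 3 of 15 mitosis promoters, against 9.69% of all 27018 promoters. The CHR word stood in 1 of 10 replication promoters and 10 of 15 mitosis promoters, against 18.1% of all promoters. CCAAT stood in 8 of 10 and 13 of 15, against 37.9%, and E2F and CCAAT matches shared bases in Ccnb1 and Mcm7. Each of the 10 mitosis promoters with the CHR word also had CCAAT, a combination found in 7.12% of all promoters. Neither of the G1 cyclin promoters that were matched, those of Ccnd3 and Ccne1, held any of these words. These matches are letters in a window and not measured binding sites.

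Replication and mitosis transcripts were scarce beside those of Ccnd1, and on average each was also below Ccnd3. Levels of different genes are compared as CPM per kilobase of exon, averaged over the 8 libraries. Ccnd1, the cyclin D that drives entry into S phase, was at 39.7 CPM per kilobase, and Ccnd3 and Ccnd2, which pair with the same kinases, were at 6.20 and 1.46. Among replication members the highest levels were those of Pcna, the sliding clamp of DNA polymerase, at 4.42, Mcm7 at 3.21 and Mcm4 at 2.92 CPM per kilobase, and the lowest was that of Mcm6 at 1.10. Mitosis members ran from 0.0768 for Cenpf, a kinetochore protein, to 1.06 for Ccnb2, a mitotic cyclin. On this average every mitosis member was below every replication member. For Ccnb2 and Mcm6 that order rested on wildtype 2, where Mcm6 was at 3.55 CPM per kilobase. Mcm6 was the higher of the pair in knockout 4, wildtype 2 and wildtype 4, and Ccnb2 in the other libraries. Mcm5, also at 1.10 on average, was above Ccnb2 in those same libraries only. Ccnb2 was above Mcm3 and Rrm1 as well in some libraries, such as knockout 1. Nusap1, a spindle protein, at 0.666, and Ccna2, the cyclin of S and G2 phases, at 0.652, followed Ccnb2. The spread of most neighbours overlapped: Ccnb2 ran from 0.567 to 1.74 over the libraries, and Nusap1 from 0.452 to 0.890.

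Of the 35 members, 32 passed the filter on low counts and were tested. Ccnb1, Aurkb and Bub1, all mitosis members with mean levels of 0.457 to 0.587 CPM, did not. Between the labelled groups 0 of 32 members were called at an adjusted p under 0.05 by the quasi-likelihood test of edgeR, and over all 14433 genes tested 0% were called. At an unadjusted p under 0.05 there were 0 of 32 members against 4.00% of all genes, of which 2.17% were higher and 1.84% lower under the knockout label. The log2 difference, knockout minus wildtype, was positive for 21 of 32 members against 51.3% of all genes. It ranged from -0.80 for Mcm6 to 0.50 for Aurka, and its median was 0.13 over members and 0.01 over all genes.

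**Figure D1:**
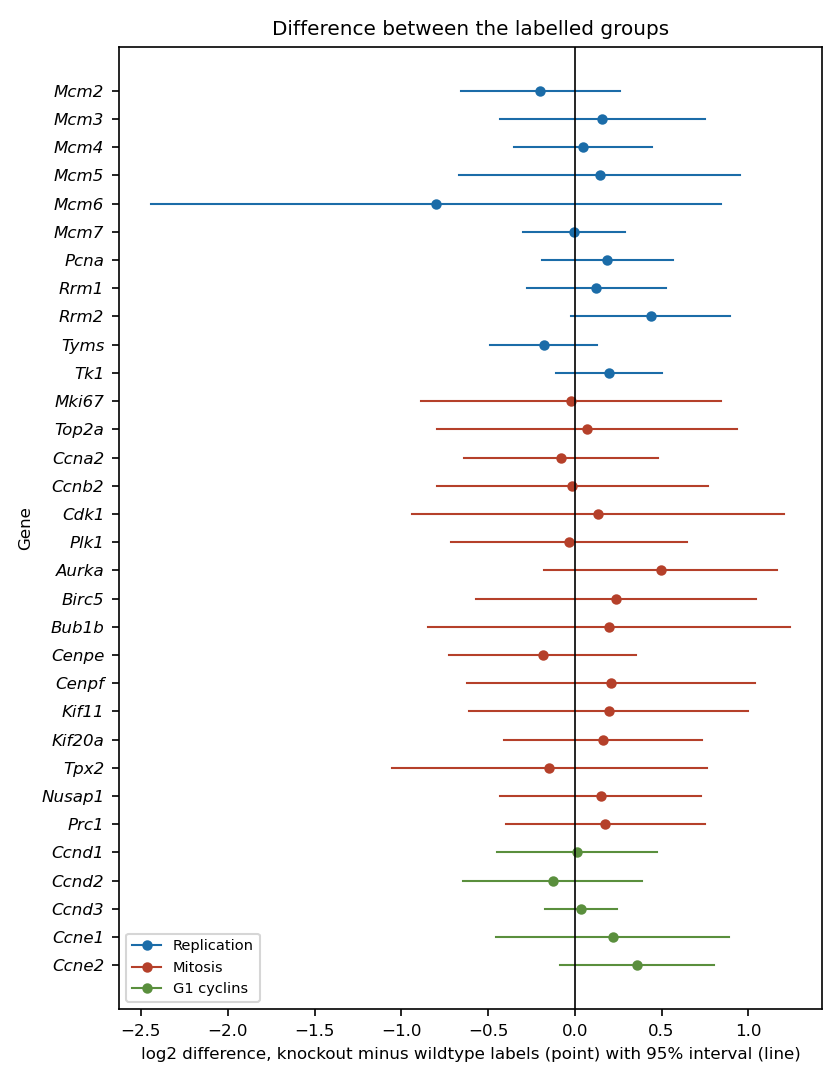
Points are log2 differences, knockout minus wildtype labels, of the 32 members tested and lines their 95% intervals, from the edgeR fit on all genes with 4 libraries per group; colours give the role. Every interval includes 0, and that of Mcm6 is the widest, from -2.44 to 0.84.

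Replication and mitosis members had like medians in this comparison. The median log2 difference was 0.12 over 11 replication members, 7 of them positive, and 0.14 over 16 mitosis members, 10 of them positive. For the 5 G1 cyclins it was 0.04, with 4 positive. What differed was the precision: the 95% interval lay within a 2-fold change either way for 10 of 11 replication members, 9 of 16 mitosis members and 5 of 5 G1 cyclins, against 86.5% of all genes tested. The median standard error was 0.18 for replication members, 0.36 for mitosis members and 0.16 for all genes, beside median levels of 9.03, 1.54 and 21.8 CPM. Absence of a call therefore does not show that mitosis members were at the same level in both groups.

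**Figure D2:**
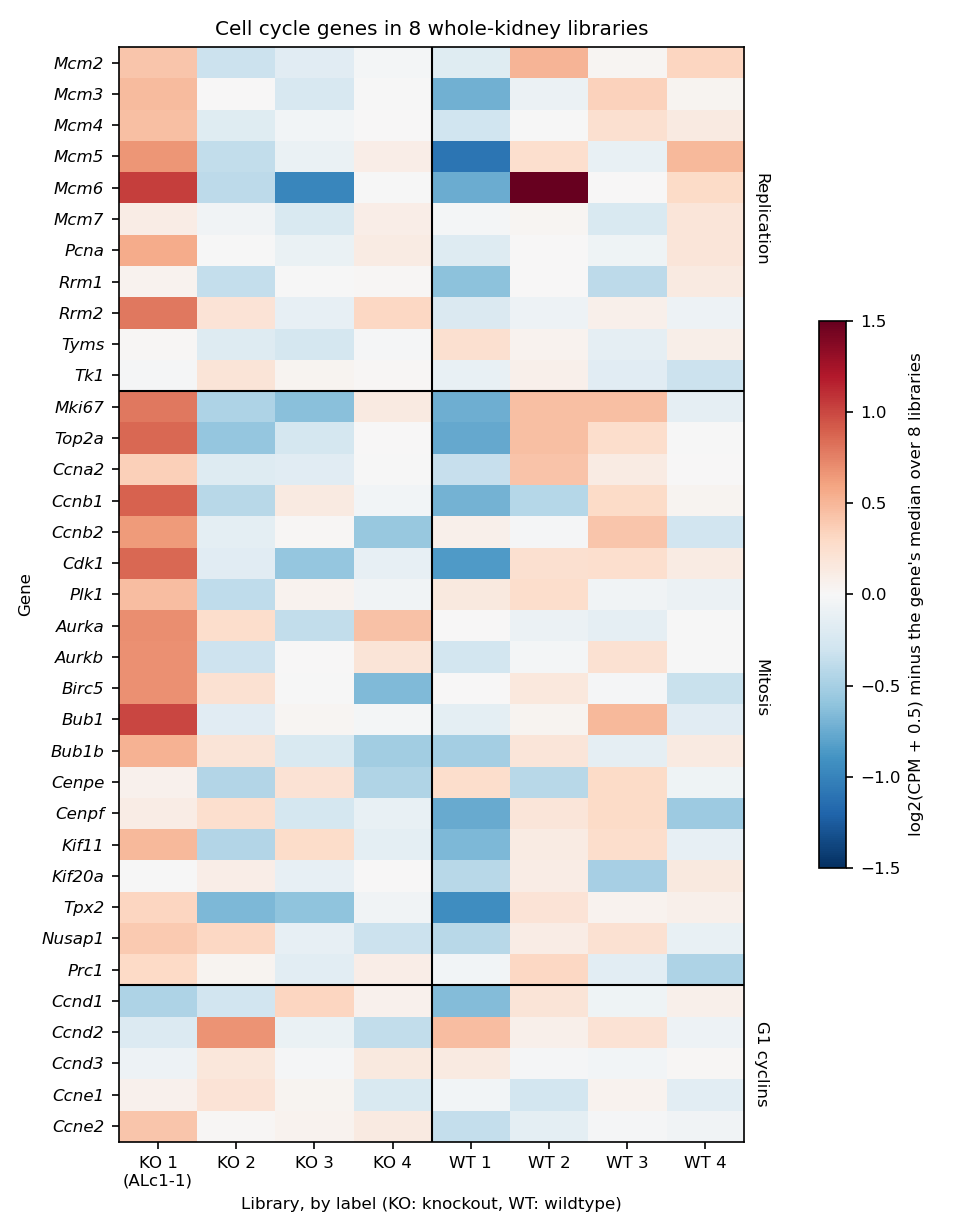
Rows are the 35 members by role and columns the 8 libraries; colour is log2(CPM + 0.5) minus the gene's median over the libraries, with the scale ending at 1.5 either way, which Mcm6 in wildtype 2 exceeds. The knockout 1 column (ALc1-1) is highest for 14 of 19 mitosis members, and the wildtype 1 column is lowest for 17 of all 35.

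The replication members with the highest levels per length did not separate the groups. Pcna was at 14.9, 9.93, 9.34 and 10.9 CPM in knockout 1 to 4 and at 8.69, 10.1, 9.53 and 11.4 CPM in wildtype 1 to 4, a log2 difference of 0.19 (SE 0.17, adjusted p = 0.957 by edgeR) that was 0.02 without ALc1-1. Mcm4, a helicase subunit, was at 13.9, 8.79, 9.78 and 10.1 CPM against 8.08, 10.1, 11.99 and 11.1 CPM. In both genes ALc1-1 was the highest library and wildtype 1 the lowest, and the other libraries of the groups overlapped. Mcm7, another subunit, was at 15.5, 13.8, 12.2 and 15.4 CPM against 13.9, 14.6, 12.1 and 16.3 CPM. It varied least in this role, its interval ran from -0.30 to 0.29, and neither ALc1-1 nor wildtype 1 was at an end of its range. Pcna and Mcm7 share 19.1% and 23.3% of their 50-base words with other genes or gene copies, among them the pseudogene Pcna-ps2. Reads without a unique place or gene were set aside by the counting.

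Rrm2, the small subunit of ribonucleotide reductase that is made in S phase, had the lowest p of all members. Its levels were 10.2, 6.62, 5.19 and 7.14 CPM in knockout 1 to 4 and 4.82, 5.38, 6.00 and 5.35 CPM in wildtype 1 to 4. The groups overlapped through knockout 3, and the log2 difference of 0.44 (SE 0.21) had an unadjusted p of 0.060 and an adjusted p of 0.957 by edgeR. Without ALc1-1 the difference was 0.23. Tk1, thymidine kinase of the salvage pathway, was at 8.81, 10.3, 9.19 and 9.08 CPM against 8.22, 9.44, 7.89 and 7.03 CPM, and here ALc1-1 was the lowest of the libraries labelled knockout. Its log2 difference was 0.20 (SE 0.14, adjusted p = 0.957 by edgeR). Tyms, thymidylate synthase, ran from 7.56 to 10.9 CPM and Rrm1, the large reductase subunit, from 10.4 to 17.8 CPM over the 8 libraries, with overlapping groups.

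Mcm6 was the replication member that departed from its partners. It was at 7.54, 2.48, 1.48 and 3.40 CPM in knockout 1 to 4 and at 1.83, 16.6, 3.41 and 4.26 CPM in wildtype 1 to 4, from 20 to 265 counts. Wildtype 2 stood far above the rest, and ALc1-1 was the next. The log2 difference of -0.80 (SE 0.72) changed sign to 0.24 without wildtype 2. Mcm2, an origin licensing subunit of the same ring, was also highest in wildtype 2, at 14.2 CPM against 13.4 CPM in ALc1-1 and 7.77 to 12.5 CPM in the others, whereas Mcm3, Mcm4 and Mcm5 were highest in ALc1-1. The neighbours of Mcm6 on chromosome 1 did not show that gap: Dars was at 106 CPM in wildtype 2 and 69.4 to 96.7 CPM in the others, and Ubxn4 at 145 CPM against 101 to 130 CPM. Lct, which lies on the other side of Mcm6 from Dars, had 2 counts in wildtype 2 and 0 in the rest.

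Mitosis members overlapped between the groups in every case that was tested. Mki67, which encodes the antigen Ki-67 of cycling cells, was at 7.54, 2.87, 2.52 and 4.61 CPM in knockout 1 to 4 and at 2.31, 5.88, 5.87 and 3.74 CPM in wildtype 1 to 4. Its log2 difference was -0.02 (SE 0.39) and became -0.42 without ALc1-1. Within each group the levels thus spanned more than the difference between the groups. Top2a, the topoisomerase that untangles sister chromatids, was at 6.08, 1.91, 2.52 and 3.14 CPM against 1.63, 4.44, 3.85 and 3.10 CPM, in nearly the same order of libraries as Mki67. Cdk1, the kinase that starts mitosis, was at 2.47, 0.955, 0.593 and 1.00 CPM against 0.408, 1.44, 1.45 and 1.29 CPM. The log2 difference of Cdk1 was 0.14 (SE 0.48) with ALc1-1 and -0.43 without it.

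The mitotic cyclins were low throughout. Ccna2 was at 3.42, 2.17, 2.22 and 2.54 CPM in knockout 1 to 4 and at 1.90, 3.63, 2.84 and 2.58 CPM in wildtype 1 to 4, with a log2 difference of -0.08 (SE 0.25). Ccnb2 was at 2.66, 1.34, 1.56 and 0.868 CPM against 1.63, 1.501, 2.21 and 1.16 CPM, with a log2 difference of -0.01 (SE 0.35). ALc1-1 was highest for Ccnb2 and wildtype 2 for Ccna2. Ccnb1, the cyclin partner of Cdk1, had 19, 3, 7 and 6 counts against 1, 3, 10 and 7 counts, so that the level in wildtype 1, 0.0679 CPM, was below that of 3 counts. Ccnb1 also shares 23.4% of its words with copies such as Ccnb1-ps, so its level is uncertain.

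Kinases, checkpoint and spindle genes gave the same picture. Aurka, the kinase of the spindle poles, was at 2.41, 1.66, 0.889 and 1.94 CPM in knockout 1 to 4 and at 1.29, 1.19, 1.14 and 1.29 CPM in wildtype 1 to 4. Its log2 difference of 0.50 (SE 0.30, unadjusted p = 0.131, adjusted p = 0.957 by edgeR) was the largest positive difference among members, and it was 0.29 without ALc1-1. Knockout 3 was the lowest library. Bub1b, a spindle checkpoint kinase, was at 1.08, 0.764, 0.445 and 0.267 CPM against 0.272, 0.750, 0.505 and 0.710 CPM. Its interval, from -0.85 to 1.24, shows how little these counts can resolve. Nusap1 was at 3.61, 3.38, 2.37 and 2.00 CPM against 1.83, 2.88, 3.16 and 2.39 CPM. The remaining mitosis members that were tested, Plk1, Birc5, Cenpe, Cenpf, Kif11, Kif20a, Tpx2 and Prc1, had log2 differences from -0.18 to 0.24. Of the exon bases of Kif20a 29.3% lie in Cdc23, and strand was not used in counting.

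The D cyclins were not highest in ALc1-1. Ccnd1 was at 142, 161, 245 and 204 CPM in knockout 1 to 4 and at 125, 225, 188 and 207 CPM in wildtype 1 to 4, with a log2 difference of 0.01 (SE 0.21). ALc1-1 and wildtype 1 had the lowest levels of their groups. Ccnd2 was at 10.8, 20.4, 11.7 and 9.61 CPM against 17.6, 13.3, 14.7 and 11.9 CPM, highest in knockout 2 and wildtype 1, the libraries with adrenal transcripts, whose part in this was not tested. Ccnd3 was at 50.04, 59.7, 52.0 and 58.5 CPM against 58.0, 52.0, 51.1 and 53.6 CPM, and its interval from -0.17 to 0.24 was the narrowest of all members. Ccne1, a cyclin of Cdk2, ran from 0.5002 to 0.8915 CPM.

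Ccne2, the other cyclin E, was the only member whose groups did not overlap. It was at 3.86, 2.80, 2.89 and 3.07 CPM in knockout 1 to 4 and at 2.04, 2.44, 2.71 and 2.64 CPM in wildtype 1 to 4. Such a separation with higher levels under the knockout label was found for 1 of 32 members and for 1.03% of all genes tested, and one with lower levels for 0 members and 0.935% of all genes. The log2 difference was 0.36 (SE 0.20, unadjusted p = 0.101, adjusted p = 0.957 by edgeR), and it was 0.25 without ALc1-1. As in many replication and mitosis members, ALc1-1 was highest and wildtype 1 lowest. Of the exon bases of Ccne2 17.4% lie in Ints8 on the annotation used, and for Ccnd1 23.4% lie in LTO1, so reads there were not assigned to a single gene.

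Library ALc1-1 stood apart from the other 7 libraries in the replication and mitosis members. It is a single library and was singled out with earlier results of these data known, so the values are a description with no test. The ratio is its CPM over the median CPM of the other 7. Of the 32 members tested 14 were at least 1.5-fold above that median, against 7.81% of all genes tested, and 0 were at least 1.5-fold below it, against 7.67%. By role these were 10 of 16 mitosis members, 4 of 11 replication members and 0 of 5 G1 cyclins. Bub1b, among those 10, passed the filter on low counts only through its level in ALc1-1. The median ratio was 1.69 for mitosis members, 1.38 for replication members and 0.933 for G1 cyclins, beside 1.00 for all genes. These sets differ in median level, 1.54 CPM for mitosis members, 9.03 CPM for replication members and 21.8 CPM for all genes. Low counts vary more by counting error, and the part of this in the shares was not tested. With the 3 members that were not tested, the count was 17 of 35, and 13 of 19 for mitosis.

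**Figure D3:**
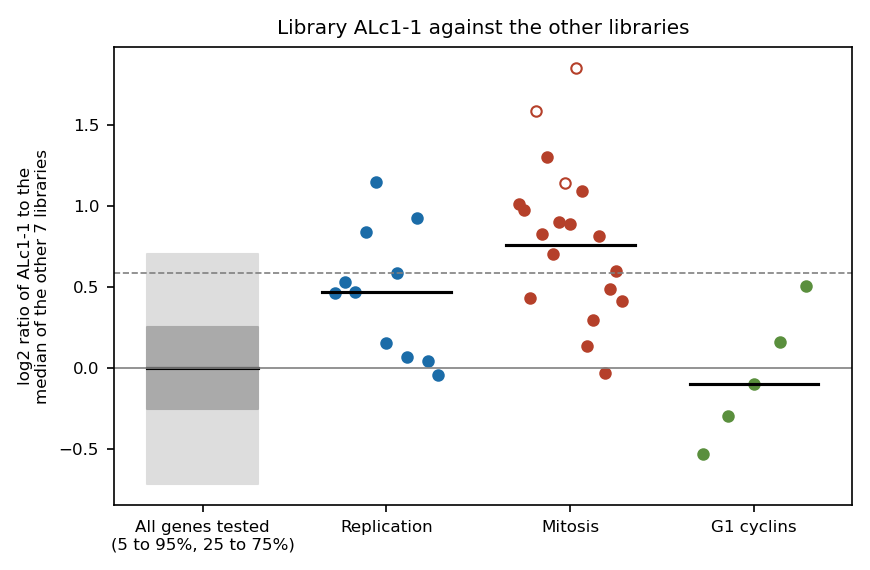
Points are members, by role, at the log2 ratio of CPM in ALc1-1 to the median of the other 7 libraries; open circles are the 3 members that were not tested, black bars medians over tested members, the dashed line 1.5-fold, and the grey boxes all genes tested. The middle 90% of all genes lie between -0.71 and 0.71, and the mitosis median is at 0.76.

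Among tested members the largest ratios were those of Cdk1 at 2.47, Mcm6 at 2.21, Bub1b at 2.13 and Mki67 at 2.01. ALc1-1 was the highest library for these except Mcm6, where wildtype 2 was higher. Bub1b, from 17 counts in ALc1-1, owed its place among tested members to that library. For Cdk1 the 39 counts of ALc1-1 give an exact Poisson interval of 1.76 to 3.38 CPM, which covers counting error only, and the highest of the other libraries was at 1.45 CPM. The replication members Pcna, at 14.9 CPM against at most 11.4 CPM elsewhere, and Rrm2, at 10.2 CPM against at most 7.14 CPM, were also highest in ALc1-1. Bub1, a checkpoint kinase, and Ccnb1, which were not tested, had still larger ratios, 3.61 and 3.01, each from 19 counts in ALc1-1. At the other end were Ccnd1 at 0.694 and Ccnd2 at 0.817. Kif20a, a motor of cytokinesis, at 0.981, and Tk1 at 0.970 were the mitosis and replication members with a ratio below 1.

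ALc1-1 was the highest of the 8 libraries for 20 of 35 members, 14 of 19 in mitosis, 5 of 11 in replication and 1 of 5 among G1 cyclins. It was also the highest for 21.5% of all genes tested and the lowest for 20.9%, so this library lies at the ends of the range more often than others in general. Wildtype 1 was the opposite: it was lowest for 17 of 35 members, 9 of 19 in mitosis and 6 of 11 in replication, against 11.0% of all genes, and highest for 1 of 35, against 9.96%. The median standard deviation of log2(CPM + 0.5) over the 8 libraries was 0.374 for mitosis members, 0.271 for replication members and 0.218 for all genes. Without ALc1-1 it was 0.310, 0.188 and 0.197. The unlike levels of these sets, given above, also bear on this spread.

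Summed over the role, mitosis members reached 52.4, 29.2, 30.0 and 31.0 CPM in knockout 1 to 4 and 25.7, 39.1, 39.7 and 31.4 CPM in wildtype 1 to 4. The group means were 35.7 ± 11.2 and 34.0 ± 6.66 CPM (SD, n = 4). Replication members summed to 124, 87.6, 87.0 and 99.9 CPM against 79.6, 115, 91.0 and 106 CPM. In both roles ALc1-1 was highest and wildtype 1 lowest, and without Mcm6 the replication sum of wildtype 2 was 98.7 CPM, below that of wildtype 4 at 102 CPM. G1 cyclins summed to 207, 245, 312 and 276 CPM against 203, 293, 258 and 276 CPM, of which Ccnd1 made up the larger part, and ALc1-1 was low.

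**Figure D4:**
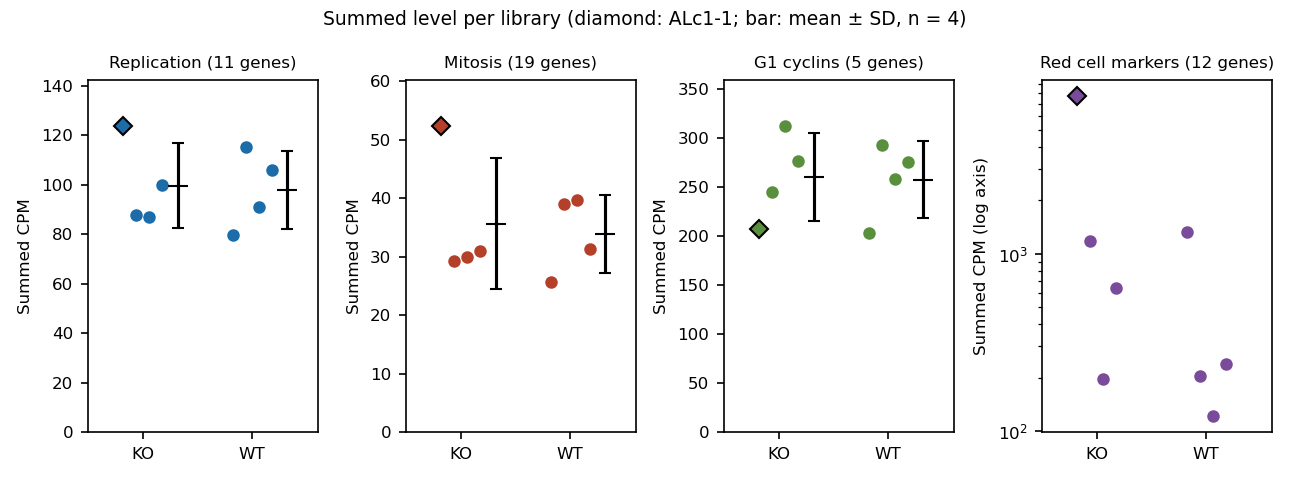
Each point is a library's CPM summed over the genes of a role, or over 12 red cell markers on a log axis; the diamond is ALc1-1 and bars, in the panels of the 3 roles, are means ± SD over 4 libraries. ALc1-1 is highest for replication (124 CPM), mitosis (52.4 CPM) and red cell markers (7735 CPM), and among the lowest for G1 cyclins (207 CPM).

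Red cell transcripts were also high in ALc1-1, while other marker sums were mixed. The 12 red cell and erythroblast markers summed to 7735 CPM in ALc1-1 and to 121 to 1316 CPM in the other libraries, and 9 of 12 were highest in ALc1-1. Hbb-bs, a beta globin and the most abundant of them, was at 4765 CPM against 74.4 to 817 CPM, and Gata1, a defining factor of red cell precursors, had 7 counts in ALc1-1 against 0 to 3 counts, with 0 in knockout 3 and wildtype 3. Klf1, another such factor, was not highest in ALc1-1: it had 72 counts there and 97 in wildtype 1. The part of these cells in the cell cycle result was not tested. Knockout 2 and wildtype 1 had the next highest red cell sums, 1173 and 1316 CPM, while their mitosis sums, 29.2 and 25.7 CPM, were the lowest of the 8. Nephron progenitor markers, whose sum was mostly Crym, reached 32.8 CPM in ALc1-1 against 22.6 to 25.7 CPM, and adipose markers 688 CPM against 194 to 684 CPM. Injury and repair markers summed to 1302 CPM in ALc1-1 and 636 to 1437 CPM elsewhere, lymphocyte markers to 56.3 CPM against 14.4 to 51.0 CPM, macrophage markers to 376 CPM against 208 to 584 CPM, and neutrophil markers to 6.84 CPM against 0.189 to 12.3 CPM. ALc1-1 also had the largest share of reads outside annotated genes, 16.2% against 11.6% to 14.5%, and of reads without a unique place, 20.9% against 15.8% to 18.4%.

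Without ALc1-1 the comparison of the labelled groups tilted the other way, again with no call. Of 32 members 13 were positive and 19 negative, while 48.8% of the 14573 genes then tested were positive. None of the members was called by edgeR, as for all genes, 0%, and 0 had an unadjusted p under 0.05 against 3.17% of all genes; the lowest was 0.077. The median log2 difference was -0.21 for mitosis members, with 11 of 16 negative, -0.05 for replication members and 0.13 for G1 cyclins. The sign of the mitosis median in the full comparison, 0.14, therefore rested on this library.

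The wider cell cycle machinery was read from 86 further genes in 7 lists, of which 72 were tested and 0 were called. Their log2 differences were positive for 48 and negative for 24, with a median of 0.11, and 3 had an unadjusted p under 0.05. Over all genes tested 51.3% were positive and 4.00% had such a p, so 3 of 72 is near the background. ALc1-1 was the highest library for 39 of the 72, against 21.5% of all genes. The signs of the 72 were not counted again without it. In origin licensing and firing, 8 of 11 were positive. Cdt1, which loads the Mcm helicase, was at 6.76 ± 1.38 CPM against 5.21 ± 0.68 CPM (SD, n = 4), and Dbf4, the activator of the Cdc7 kinase, at 2.62 ± 0.15 CPM against 2.15 ± 0.39 CPM with no overlap of the groups. Groups separated in this direction for 2 of the 72 genes, Dbf4 and Chek1, against 1.03% of all genes. In the list of replication fork and nucleotide supply 10 of 15 were positive. Its examples were Uhrf1, which maintains DNA methylation at the fork, with a log2 difference of 0.57 (SE 0.42), and Prim1, the catalytic subunit of primase, with 0.31 (SE 0.18). Without ALc1-1 these were 0.05 and 0.16.

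Control of the G1 to S transition was even, with 6 of 12 positive, and Cdk4, the partner of D cyclins, had a log2 difference of 0.13 (SE 0.09). The CDK inhibitors, which hold cells in G1, were positive for 5 of 5, with a median of 0.54. Cdkn1b, which encodes p27, was at 88.2, 81.7, 66.9 and 75.7 CPM in knockout 1 to 4 and at 67.4, 63.9, 63.1 and 59.7 CPM in wildtype 1 to 4. Cdkn2b, which encodes p15, was at 4.37, 3.63, 2.59 and 4.00 CPM against 2.65, 1.31, 2.59 and 1.61 CPM. In both genes only knockout 3 fell within the range of the wildtype label. Their log2 differences were 0.30 (SE 0.10) and 0.84 (SE 0.28) with unadjusted p of 0.014 and 0.012 and adjusted p of 0.957 by edgeR. ALc1-1 was highest for both.

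In the list of p53 arrest targets 4 of 7 were positive, and Ccng1, a target induced by DNA damage, was at 283 ± 33.1 CPM against 289 ± 30.3 CPM (SD, n = 4). Among genes of mitotic entry, checkpoint and exit 10 of 14 were positive. Chek1, the kinase that halts the cycle when replication stalls, was at 1.96, 2.04, 1.48 and 1.80 CPM in knockout 1 to 4 and at 1.22, 0.938, 1.14 and 1.10 CPM in wildtype 1 to 4. The groups did not overlap, and the log2 difference of 0.73 (SE 0.23) had an unadjusted p of 0.0094 and an adjusted p of 0.957 by edgeR. Without each library in turn it stayed between 0.66 and 0.81. Kinetochore, spindle and cytokinesis genes were positive for 5 of 8, with Spc25, a subunit of the Ndc80 complex, at a log2 difference of 0.38 (SE 0.27) that was 0.12 without ALc1-1.

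ALc1-1 was high in the wider lists too, though unevenly. It was at least 1.5-fold above the median of the other 7 for 24 of 72 genes tested, beside the 7.81% of all genes. Median levels of these sets were unlike, 5.33 and 21.8 CPM. Cdc6 and Hmmr, among the 24, passed the filter on low counts only through ALc1-1. The share was 8 of 15 for the replication fork, 4 of 5 for CDK inhibitors, 4 of 11 for licensing, 3 of 8 for the kinetochore, 4 of 14 for mitotic entry, 1 of 12 for G1 to S control and 0 of 7 for p53 targets. Uhrf1 had a ratio of 2.74, Spc25 of 2.14 and Cdkn2b of 1.68, while Bub3, a checkpoint protein, was at 1.12.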

How the data were processed

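RNA from whole kidneys was sequenced in 8 libraries, 4 per label. The authors deposited, for each library, unnormalized counts of reads assigned to each gene. Per the submitters' processing notes, STAR, HTSeq and edgeR were used on mm9, with no versions; which annotation was used is not given in the sources used here. Counting ignored strand, per the deposited file names, although the labels' protocols name a directional kit. Lines that name no gene were kept out: reads outside genes made up 11.6% to 16.2% of each file, those hit by several genes 2.05% to 2.31%, and multiply placed ones 15.8% to 20.9%. Between libraries counts differed by 10.8 to 85.5 times sampling noise (chi-square per gene), so none was a copy.

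Symbols came from GENCODE M21 by Ensembl identifier, for 32860 of 37583, and exon lengths, exon overlaps and shared 50-base words from its GRCm38 annotation. No coordinate was converted. Members, lists, alternatives and the library ALc1-1 were chosen with earlier results of these data known. The two-sided quasi-likelihood test of edgeR 4.0.16 (R 4.3.3) used TMM, filterByExpr (minimum count 10, total 15), robust dispersion, genotype as the only term, and Benjamini-Hochberg adjustment over 14433 genes at 0.05. Standard errors and 95% intervals came from the same fit, and CPM used TMM-scaled totals. Counts were simulated for this comparison over 14270 genes with 200 changed. The test called 76.5% of genes with a true log2 difference of 1 and 94% where it was 2, with 13 false calls. Of the intervals 95.4% held the true value. Changed genes were drawn from all genes, whose median standard error was 0.16, against 0.36 for mitosis members. Shifts shared by many genes of a library were not simulated, so the shares called were not measured for the members.

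Values in every library were given for the 3 members of each role highest per kilobase, the 4 with the lowest p, and the 4 with the largest and 2 with the smallest ALc1-1 ratio. From each wider list they were the 2 with the lowest p and the most abundant. A gene this takes is left unreported. Other members were named to account for all of them. Cdkn2d was not matched to a row. Alternatives were RLE and upper-quartile factors, DESeq2 1.42.0, limma-voom (limma 3.58.1), other filters, a replicate block, raw totals, other references and folds for ALc1-1, and libraries left out. A calculation without Mcm6 was chosen after seeing the data. Plots were made with matplotlib 3.10.9.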

Additional observations from a re-analysis of the deposited data

Results flagged for a closer look

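In each labelled group of 4 libraries, the highest and lowest CPM of every member was compared with the nearest other library by Dixon's ratio. Of 70 combinations of member and group, 3 passed the 95% critical value for 4 libraries, and chance alone passes about 5% of groups. Mcm6 was at 16.6 CPM in wildtype 2 against 1.83 to 4.26 CPM in the other libraries of that label. Cdk1 was at 0.408 CPM in wildtype 1, from 6 counts, against 1.29 to 1.45 CPM in the other 3. Bub1 was at 1.20 CPM in knockout 1 (ALc1-1), from 19 counts, against 0.255 to 0.371 CPM in the other 3.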

How the results depend on the processing

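No member was called under any alternative run. Over all genes, DESeq2 called 4 and the fit without both heat-shock libraries (knockout 2 and knockout 4) called 1, and leaving out each library in turn gave 0 to 2. Genes at an unadjusted p under 0.05 numbered 578 in the reported fit, 879 with no filter, 904 without both heat-shock libraries, and 343 (without wildtype 2) to 1252 (without knockout 3) with a library left out. Same-numbered libraries had correlations of -0.23 to 0.313 and are not paired by the labels; with the number as a replicate block 1075 genes had an unadjusted p under 0.05 and 0 were called. With a library left out, members at an unadjusted p under 0.05 numbered 0 to 2 (without knockout 3: Rrm2 and Aurka), and positive members 13 (without knockout 1) to 27 (without wildtype 2). Medians of log2 differences ran from -0.21 to 0.26 for mitosis, -0.05 to 0.19 for replication and 0.0094 to 0.13 for G1 cyclins, lowest without knockout 1 in the first pair. The difference of the replication and mitosis medians ran from -0.11 to 0.16.

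These log2 differences changed sign. Mcm7 was 0.0011 with upper-quartile factors, 4e-04 with limma-voom and 0.0045 without both adrenal libraries. Without both adrenal libraries (knockout 2 and wildtype 1), Ccnb2 was 0.070, Cdk1 -0.019, Bub1b -0.112, Nusap1 -0.069 and Ccnd1 -0.064. Without both heat-shock libraries, Mki67 was 0.18, Ccna2 0.045, Ccnb2 0.38, Ccnd3 -0.074, Ccng1 0.0082 and Tfap2b -0.30. With a library left out, the ranges were -0.18 to 0.45 for Bub1b, -0.052 to 0.12 for Bub3, -0.25 to 0.083 for Ccna2, -0.38 to 0.19 for Ccnb2, -0.14 to 0.13 for Ccnd1, -0.43 to 0.0016 for Ccnd2, -0.0059 to 0.080 for Ccnd3, -0.11 to 0.034 for Ccng1, -0.43 to 0.36 for Cdk1, -0.11 to 0.13 for Mcm4, -1.40 to 0.24 for Mcm6, -0.076 to 0.067 for Mcm7, -0.42 to 0.17 for Mki67 and -0.12 to 0.18 for Tfap2b. The cause was not tested.

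Among tested members, with the lower of the other folds tried 7 replication members and 1 G1 cyclin had ALc1-1 above the reference, and with 2-fold 4 members had, 1 in replication and 3 in mitosis, because the required fold itself changed. Of 464 values recomputed under alternatives other than leaving out a library, 440 were classed as unchanged, 14 as reversed and 10 as moved. For log2 differences of single genes, unchanged meant the same direction and side of the threshold. Counts and medians were classed by the size of their shift, so unchanged did not require the same sign. By that rule the replication median, 0.12 with all libraries and -0.05 without knockout 1, was neither reversed nor moved. Mitosis members had the fewest counts of the 3 roles and the largest spread between libraries, and the part of depth in their errors was not tested.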

Other observations

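Pttg1, which encodes securin, the inhibitor of the protease that separates sister chromatids, varied widely between libraries. It was at 11.7, 6.11, 31.4 and 6.41 CPM in knockout 1 to 4 and at 8.63, 40.7, 33.1 and 5.74 CPM in wildtype 1 to 4. Knockout 3, wildtype 2 and wildtype 3 were high, as they were for the summed macrophage markers, at 388, 584 and 435 CPM against 208 to 376 CPM in the other libraries, whose part in this was not tested, and the labelled groups overlapped. It was chosen after its values were seen. Fen1, the flap endonuclease of lagging-strand synthesis, was at 0.0631 to 0.5002 CPM in all libraries, near the level of 3 counts, and 84.2% of its exon bases lie in other annotated genes.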
